A study of Mus musculus with 7 samples.

Results

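The 123 genes described here had a lower level in satellite cells taken 2 days after death than in cells of old living mice, and a lower level again in cells taken 4 days after death. They were chosen by these values among 9949 genes tested. The mean of the D2PM arrays was at most -0.5 log2 units from the mean of the old arrays, the first step. The mean of the D4PM arrays was at most -0.3 log2 units from that of the D2PM arrays, the second step. A gene also needed a mean of at least 5.12 log2 units over the 7 arrays, and symbols that start with Polr, Nop, Nol, Utp or Rrp were left out. Every array and both steps served to choose the members, so their values are given as a description and without a test.

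The study compared satellite cells of living and dead mice on microarrays: 2 arrays held cells of old mice, 2 held cells isolated 2 days post mortem (D2PM) and 3 held cells isolated 4 days post mortem (D4PM). All mice carried the transgene Tg:Pax7-nGFP, in which the Pax7 promoter drives a nuclear green fluorescent protein, and the cells were sorted by FACS on that signal from dissociated limb muscles. For the arrays of living mice the sample labels and the methods give an age of 24 to 26 months, whereas the title of the series speaks of young adults. The study describes the mice of its post-mortem data as young adults and compares their cells with young quiescent cells. The age of the living mice is therefore uncertain. These living mice are called old here, after the age in the labels. With that age, age and death cannot be told apart in any comparison with old cells. No source states whether arrays of 1 group hold cells of different mice. P-values then measure the spread between arrays, which may be technical.

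Satellite cells regenerate skeletal muscle after injury, and in resting muscle they lie quiescent under the basal lamina of the fibre. Isolation from muscle is known to start early activation, in which genes of inflammation, of stress and of ribosome production are switched on before the first division. Ribosome production takes place in the nucleolus, where a precursor RNA is transcribed by RNA polymerase I, cut, modified with the help of small nucleolar RNAs and assembled with ribosomal proteins, and it consumes much of the energy and nucleotides of a growing cell.

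Of the 9949 genes tested, 926 (9.31%) met the limit of the first step and 765 (7.69%) that of the second. Both limits were met by 127 genes, which were 13.71% of those of the first step and 16.6% of those of the second, and the 123 members are 1.24% of the genes tested. The steps share the D2PM arrays with opposite sign. Removal by symbol took out 4 genes of ribosome production and left the 123. They were Polr1b and Polr1e, which encode parts of RNA polymerase I, with steps of -1.15 and -0.48 in Polr1b and of -0.50 and -0.39 in Polr1e, and Nol9 (-0.99 and -0.37) and Nol10 (-0.59 and -0.43), which act in rRNA processing. A further 5 genes met both steps and lay below the level filter, among them Ereg (-1.52 and -0.45), an epidermal growth factor family ligand, and 2 miRNA genes, Mir186 and Mir380.

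**Figure D1:**
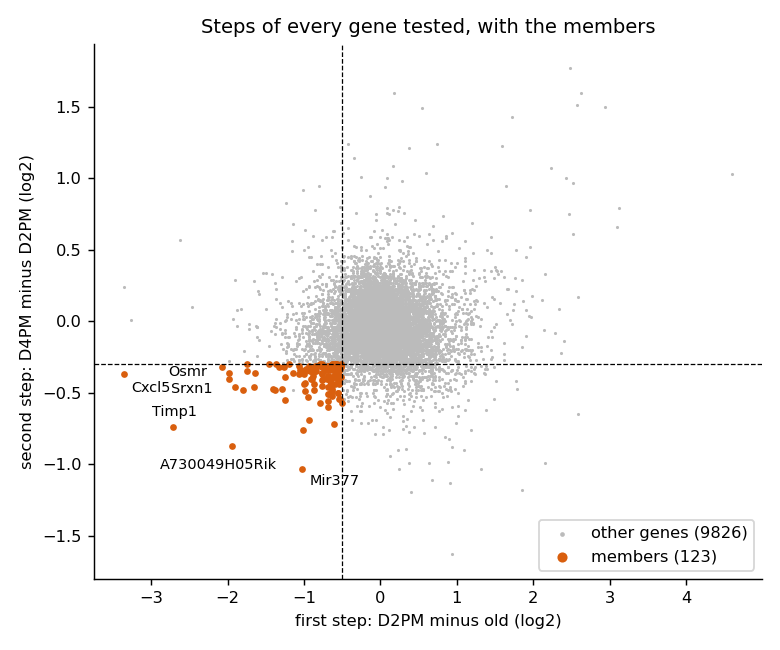
First step (D2PM minus old, horizontal axis, log2) against second step (D4PM minus D2PM, vertical axis, log2) for 9949 genes, with the 123 members in orange, all other genes in grey and dashed lines at -0.5 and -0.3. The members fill the corner below both lines. Among them Cxcl5 and Timp1 have the largest first steps, and Mir377 and A730049H05Rik the largest second steps.

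The first step of the members was between -3.35 and -0.50 (median -0.75) and the second between -1.03 and -0.30 (median -0.37). Their total difference between D4PM and old cells was between -3.72 and -0.81, with a median of -1.15, or 2.22-fold lower. It was -1 or beyond in 94 members and -2 or beyond in 12. The second step held 10% to 54.2% of the total (median 32.9%), and it was the larger step in 4 members: Mir377, Pcdh18, Pwp1 and B4galt5.

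The median level of the members was 8.19 and 8.38 log2 units on the old arrays, 7.56 and 7.46 at D2PM, and 7.17, 7.14 and 6.92 at D4PM. Relative to each gene's mean on the old arrays, the median member was at -0.14 and 0.14 on the old arrays, at -0.72 and -0.79 at D2PM and at -1.09, -1.17 and -1.32 at D4PM, while the median of all genes tested was within 0.01 of 0 on each array. The gap between old and D2PM arrays was wider than that between D2PM and D4PM arrays, and in neither did the medians of the stages overlap. The rule favours both on these same arrays, with a larger limit for the first step, so nothing is read from them.

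Both D2PM arrays were below both old arrays in 122 members, against 30.6% of all genes tested, and the exception was Wdr12. All D4PM arrays were below both D2PM arrays in 86 members, against 15.6% of all genes, and 85 members had no overlap at either step. The rule favours such patterns, so nothing is read from these counts. In the other 37 members at least 1 D4PM array reached the D2PM values. The D4PM arrays did not share the second step evenly: replicate 3 had the lowest value of its group in 68 members, replicate 2 in 35 and replicate 1 in 20, against 33.2%, 37.2% and 29.6% of all genes.

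**Figure D2:**
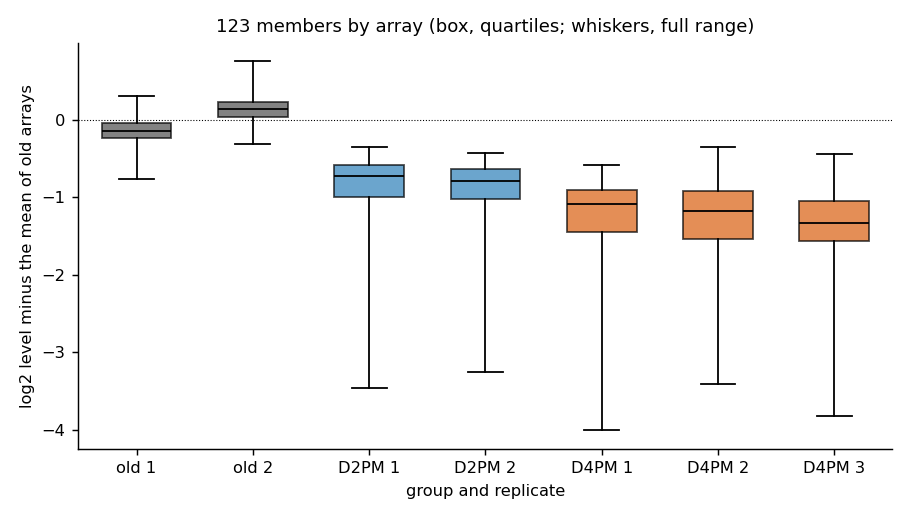
Log2 level of the 123 members minus their mean on the old arrays, for each of the 7 arrays (boxes, quartiles with the median; whiskers, full range). The medians lie at -0.14 and 0.14 on the old arrays, at -0.72 and -0.79 at D2PM and between -1.32 and -1.09 at D4PM.

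Fits with limma (Benjamini-Hochberg adjusted p under 0.05 over all genes tested) give the background. Between D4PM and D2PM cells only 3 genes (0.0302%) were lower and 16 (0.161%) higher. No member was among those 3, and 65 members had an unadjusted p under 0.05, as had 501 genes in all in that direction. Between D2PM and old cells 906 genes (9.11%) were lower and 1025 (10.3%) higher, and 96 members were among the lower ones. Between D4PM and old cells 1540 genes (15.5%) were lower and 1231 (12.4%) higher, and all 123 members were among the lower ones. These contrasts chose the members, and nothing is read from their counts. Counts of list genes given below include any members in the list, so they are not an independent background. Without D2PM replicate 1 or D2PM replicate 2 no gene differed between the days, and the count of genes that differed between D2PM and old cells in either direction, 1931, was 324 without D2PM replicate 1, 613 without D2PM replicate 2, 346 without old replicate 2 and 1278 without old replicate 1. The count for D4PM against old cells, 2771, was 913 without old replicate 2.

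The limits were close to many genes. Just inside the first limit lay B4galt5 (-0.502), Met (-0.507) and Thumpd1 (-0.513), and just outside it Qtrt2 (-0.497), Timm8a1 (-0.489) and Trp53inp2 (-0.487). Just inside the second lay Prpf4b (-0.30), Pros1 (-0.301) and Ddx27 (-0.301), and just outside it Mrto4 (-0.299), Srrt (-0.298) and Pttg1ip (-0.296). The members of lowest mean level were Npn2 (5.22), Cxcl5 (5.38) and Tnc (5.62), and the nearest genes under the filter were Mir186 (4.71), Ereg (4.67) and Mir380 (4.64). Membership also depended on single arrays: 26 of the 123 members met the rule when any 1 array was left out, among them Timp1, Slc39a14, Mir377, Pprc1, Tfpi2, Glrx, Noc4l, Thbd, Pus7, Esf1, Tsr1, Dis3, Chchd4, Dkc1 and Eif3b. Among less stable members, Cxcl5 and Eif4a1 met the rule with 3 of the 7 arrays left out in turn. Met and Eef1e1 did so with 2 of the 7.

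The members were placed in groups of function after their values had been seen. The largest was the nucleolus and ribosome assembly with 21 members, followed by transcription, chromatin and mRNA processing with 14, signalling, adhesion, protein handling and cytoskeleton with 14, tRNA and translation with 13, matrix, proteolysis and coagulation with 11, cytokine signals and inflammation with 10, and nucleotides, lipids, retinoids and glycans with 10. Smaller groups held 8 non-coding RNAs, 8 genes of mitochondria, 3 of thiol redox and 3 of satellite cell and myogenic factors, and 8 genes were not placed. The median total was -2.02 in the cytokine group and -1.65 in the matrix group, with 21.6% and 24.0% of it in the second step. The 3 thiol redox members had a median of -1.77, with 34.1% in the second step. It was -1.07 in the nucleolar group and -1.05 in the tRNA and translation group, with 34.3% and 34.0% in the second step.

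**Figure D3:**
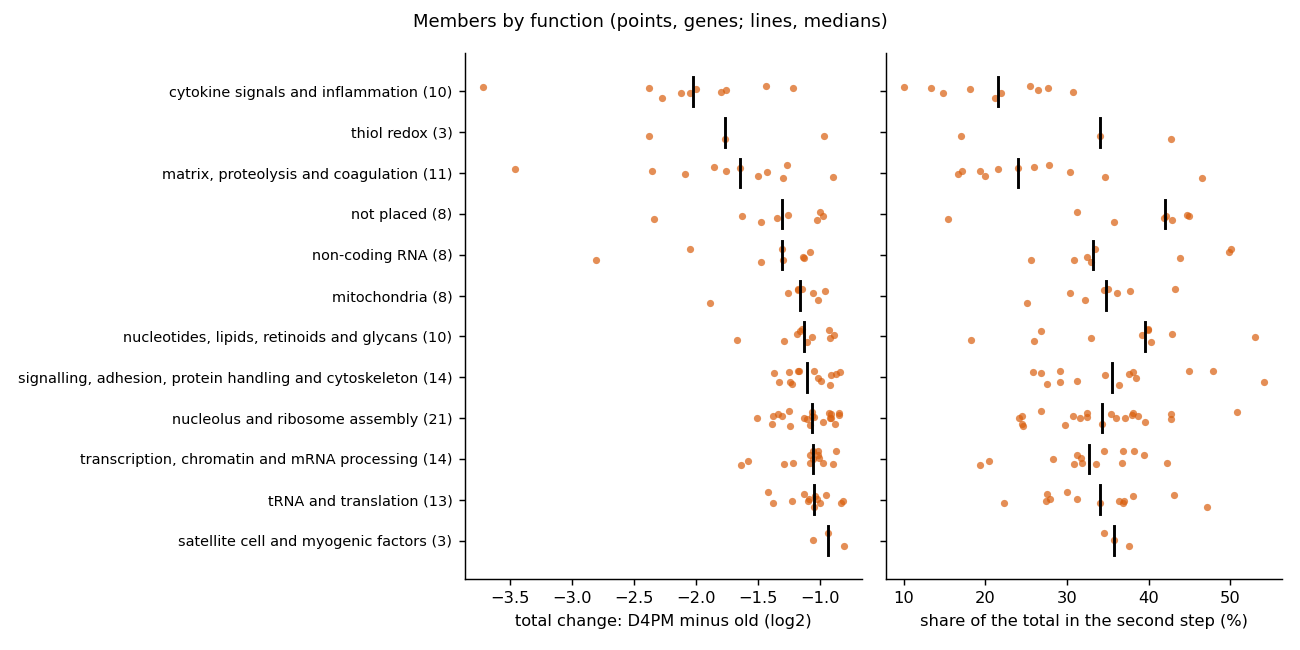
Total log2 difference between D4PM and old cells (left panel) and the share of it in the second step in percent (right panel) for each member, by group of function with the number of members in brackets (points, genes; black lines, group medians). The cytokine group has a median total of -2.02, the thiol redox group one of -1.77 and the matrix group one of -1.65, and the cytokine and matrix groups hold a median of 21.6% and 24.0% of it in the second step.

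Among ligands, the member with the largest total was Cxcl5, a chemokine that draws neutrophils. Its log2 level was 7.71 and 8.16 in old cells, 4.48 and 4.69 at D2PM, and 3.93, 4.53 and 4.18 at D4PM. D4PM cells were thus 13.2-fold below old cells, and 10% of the log2 difference lay in the second step, where the D2PM and D4PM arrays overlapped. Its post-mortem values lie under the filter value of 5.12, and RMA values carry no detection call, so differences among them may be compressed.

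The second step of Cxcl5, -0.37, did not pass the limma threshold, so it shows no difference from other chemokines. In the whole list of cytokines and chemokines 3 genes were below 0 in the second step, among them Cxcl5 and Cxcl14 (-0.25). Cxcl2 and Cxcl3, neutrophil attractants of the same family, had first steps of -3.35 and -3.26 log2 units (adjusted p = 6.28e-05 and 8.26e-06, limma), and their second steps were 0.24 and 0.01 (adjusted p = 0.787 and 0.991, limma). Of 26 cytokine and chemokine genes tested, 1 was a member. At D4PM 5 of the 26 were higher than at D2PM and 0 lower, where 0.161% of all genes were higher and 0.0302% lower (limma adjusted p). At an unadjusted p under 0.05, 12 were higher and 0 lower. The median second step of the list was 0.45, against -0.03 over all genes. Tnf, the inflammatory cytokine, was among those higher in both steps (2.48 and 1.77, adjusted p = 0.000447 and 0.0346, limma), as was the chemokine Cxcl10 (3.12 and 0.79, adjusted p = 2.78e-07 and 0.0346, limma). The second step of Ccl2, a monocyte attractant, was 1.14 (adjusted p = 0.0477, limma).

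Among receptors, Osmr, which binds oncostatin M, had levels of 10.36 and 10.14 in old cells, 8.23 and 8.15 at D2PM, and 7.75, 7.99 and 7.87 at D4PM. No stage overlapped the next. Il1r1, the signalling receptor of interleukin 1, had levels of 10.47 and 10.55 in old cells, 8.89 and 8.86 at D2PM, and 8.58, 8.65 and 8.32 at D4PM, again with no overlap. The total was -2.38 for Osmr and -2.0 for Il1r1. Eda2r, a receptor of the tumour necrosis factor family, had a total of -1.22.

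Of 36 growth factor and cytokine receptor genes tested, 3 were members: Osmr, Il1r1 and Met. Between D2PM and old cells 10 of the 36 were lower and 1 higher, where 9.11% of all genes were lower and 10.3% higher (limma adjusted p). The 10 include the 3 members, which were chosen on this same contrast. Between D4PM and D2PM 0 changed (limma adjusted p, with 3 lower and 2 higher at an unadjusted p under 0.05). The 7 receptors lower at D2PM that were not members had second steps between -0.16 and 0.28. Without old replicate 2, D2PM replicate 1 or D2PM replicate 2 the 10 became 4. Il6st, the gp130 chain with which Osmr pairs, was at -0.76 in the first step (adjusted p = 0.005, limma) and at -0.11 in the second (adjusted p = 0.802, limma). Tnfrsf1a, the main receptor of Tnf, was at -0.94 (adjusted p = 0.00766, limma) and -0.16 (adjusted p = 0.777, limma).

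Signal transducers and acute phase genes made up the rest of the cytokine group. Map2k3, a kinase that activates p38, had 10.39 and 10.39 in old cells, 8.69 and 8.60 at D2PM, and 8.35, 8.42 and 8.25 at D4PM. Slc39a14, a zinc and iron transporter that inflammation induces in liver, had 9.93 and 9.97 in old cells, 8.18 and 8.40 at D2PM, and 7.98, 7.74 and 7.77 at D4PM. In both genes the 3 stages stood apart with no overlap. Ptx3, a secreted pattern recognition protein of innate immunity, had 8.49 and 9.09 in old cells, 7.02 and 6.96 at D2PM, and 7.02, 6.73 and 5.77 at D4PM. Its second step rests on the third D4PM array, since the first had the level of D2PM. Fgl2 (prothrombinase of activated cells), Sbno2 (a transcriptional coregulator induced by interleukin 10) and Casp4 (inflammatory caspase) had totals of -1.80, -1.76 and -1.44.

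**Figure D4:**
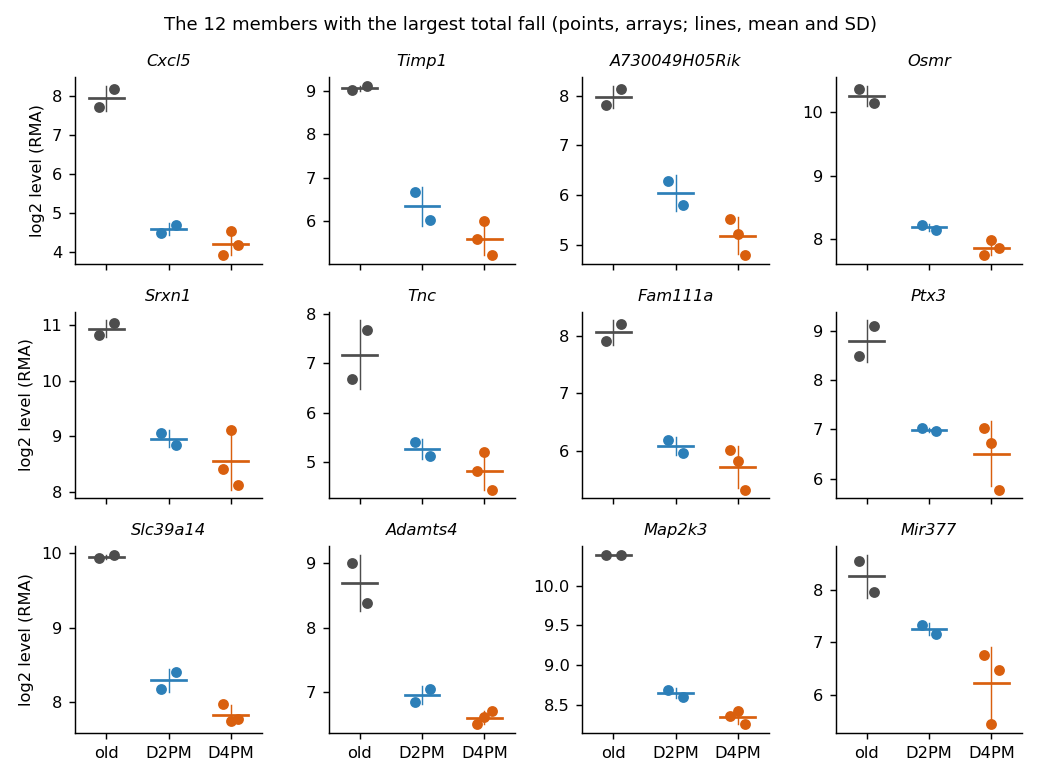
Log2 levels (RMA) of the 12 members with the largest total difference, with 1 panel per gene and its own vertical scale, 1 point per array (2 old, 2 D2PM, 3 D4PM), horizontal lines at group means and vertical lines of 1 SD. Osmr, Slc39a14 and Map2k3 show 3 separate stages, whereas D2PM and D4PM points overlap in Cxcl5, Srxn1, Tnc, Fam111a and Ptx3.

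Proteins that regulate matrix breakdown were prominent in the matrix group. Timp1, which inhibits matrix metalloproteinases, had levels of 9.02 and 9.10 in old cells, 6.67 and 6.03 at D2PM, and 5.59, 6.0 and 5.23 at D4PM. All D4PM arrays lay below both D2PM arrays, though the nearest differed by little, and D4PM cells were 11-fold below old cells. Adamts4, a protease that cuts aggrecan and versican, had 9.0 and 8.38 in old cells, 6.85 and 7.05 at D2PM, and 6.50, 6.61 and 6.71 at D4PM. Vcan, which encodes versican itself, had a total of -0.90.

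Tnc, the matrix glycoprotein tenascin C of injured and embryonic tissue, had 6.68 and 7.67 in old cells, 5.41 and 5.13 at D2PM, and 4.81, 5.20 and 4.44 at D4PM. The old arrays differed by about the width of the post-mortem range, and D2PM and D4PM overlapped. Tenocytes also express Tnc, and the 9 tenocyte markers named on the array (8 tested, with Angptl7 below the filter) moved the other way: their summed linear level was 442 to 556 in old cells, 934 to 965 at D2PM and 685 to 1153 at D4PM. The part of these cells in the level of Tnc was not tested. In bulk RNA, fewer cells of a type and less RNA per cell cannot be told apart.

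Other members of this group were inhibitors, receptors and cofactors of serine proteases. Tfpi2, an inhibitor of serine proteases, had 9.42 and 9.25 in old cells, 8.03 and 7.88 at D2PM, and 7.71, 7.57 and 7.14 at D4PM, without overlap. Thbd (thrombomodulin, the thrombin receptor that starts protein C activation) had 7.96 and 8.27 in old cells, 7.12 and 7.12 at D2PM, and 6.57, 6.92 and 6.56 at D4PM, without overlap. The stages of both genes were ordered on every array. Plaur (the urokinase receptor) and Pros1 (protein S, the cofactor of protein C) had totals of -1.76 and -1.50. The group also held Cd109 (a membrane protein that binds transforming growth factor beta), Sh3pxd2b (a scaffold of podosomes) and Aebp1 (a collagen-binding protein), with totals of -1.65, -1.30 and -1.27.

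Thbd is also expressed by endothelial cells. The 21 endothelial markers tested, of 22 listed and with 0 below the filter, had a mean log2 level of 5.97 to 6.71 on the old arrays, 7.11 on both D2PM arrays and 7.08 to 7.60 at D4PM, so the markers were higher where Thbd was lower. Their summed linear level was 1570 to 2857 on the old arrays, 4151 to 4181 at D2PM and 4100 to 6050 at D4PM. The part of these cells in the level of Thbd was not tested.

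Of 66 genes of the extracellular matrix and its remodelling tested, 4 were members: Timp1, Tnc, Adamts4 and Vcan. Between D2PM and old cells 6 of the 66 were lower and 8 higher, near the shares over all genes (9.11% lower and 10.3% higher). The list median was -0.04, and the lower ones were fewer without old replicate 2 or D2PM replicate 2. The 8 became 0 without old replicate 2 or D2PM replicate 1 and 1 without D2PM replicate 2. Between D4PM and D2PM 0 changed (limma adjusted p, with 5 lower and 0 higher at an unadjusted p under 0.05). Lox, which crosslinks collagen, had a first step of -1.62 (adjusted p = 0.000158, limma) and a second of -0.04 (adjusted p = 0.936, limma). The collagen and laminin genes were not among the members. Fibroadipogenic progenitors are the main matrix-producing cells of muscle, and the 15 of their 18 markers named on the array (13 tested, with Pi16 and Dpp4 below the filter) had a mean log2 level of 6.90 to 7.35 in old cells, 7.44 to 7.48 at D2PM and 6.99 to 7.31 at D4PM. Their summed linear level was 6266 to 8181 in old cells, 7671 to 8366 at D2PM and 6586 to 7193 at D4PM, and its part in the matrix genes was not tested.

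Of the nucleolar members, Noc4l had the largest total. It encodes a protein of the small subunit processome, and its levels were 8.40 and 8.64 in old cells, 7.35 and 7.39 at D2PM, and 7.01, 6.89 and 7.13 at D4PM. Gnl3 (nucleostemin, a nucleolar GTPase of stem cells) had 10.39 and 10.46 in old cells, 9.37 and 9.38 at D2PM, and 9.19, 8.86 and 9.06 at D4PM. Heatr1, which acts in transcription by RNA polymerase I and early rRNA processing, had 8.65 and 9.14 in old cells, 7.87 and 7.83 at D2PM, and 7.49, 7.71 and 7.33 at D4PM. In all 3 genes each stage lay below the previous one on every array, with totals of -1.51, -1.39 and -1.38.

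Members stood along the whole path of ribosome assembly. The rRNA modification step was represented by Dkc1 (dyskerin, the pseudouridine synthase of box H/ACA particles, total -1.13). The small subunit path was represented by Tsr1 (-1.31), Esf1 (-1.34), Wdr36 (-1.07) and the kinase Riok2 (-0.91). Large subunit factors included the GTPase Gnl2 (-1.24), Noc3l (-1.08), Mak16 (-1.05), Wdr12 of the PeBoW complex (-0.98), the helicases Ddx27 (-0.93) and Ddx54 (-0.85, with 1 of its 2 probe sets meeting both steps), Nifk (-0.91) and Nmd3 (-0.92), the adaptor that exports the finished large subunit. Dis3 and Exosc2, a nuclease and a cap protein of the RNA exosome that trims rRNA precursors, had totals of -1.25 and -0.88. The other nucleolar members were Pwp1 (-1.07), with steps of -0.53 and -0.54, Tma16 (-1.11) and Zfp593 (-0.85).

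**Figure D5:**
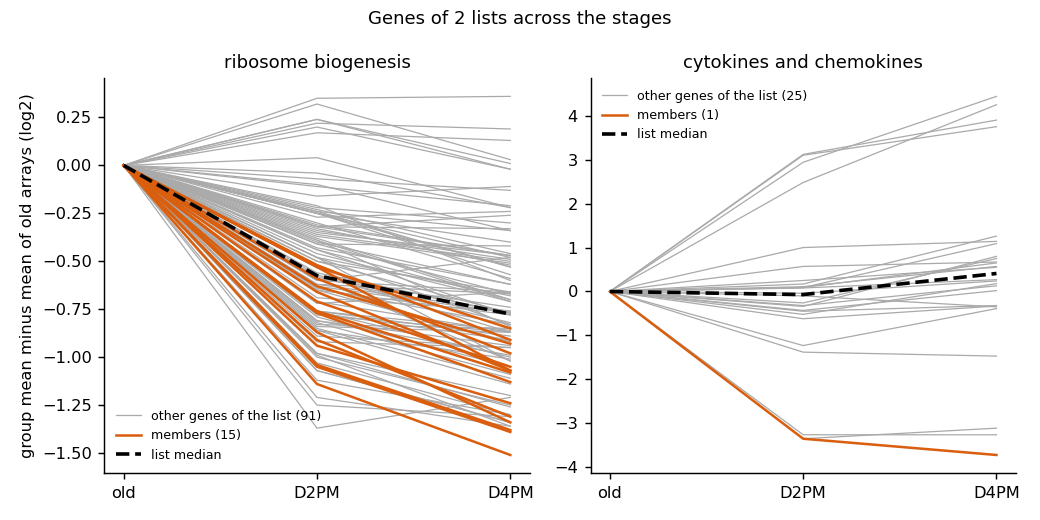
Group means relative to the mean of the old arrays (log2) at the 3 stages for 106 genes of ribosome biogenesis (left panel) and 26 cytokine and chemokine genes (right panel), with members in orange, other genes in grey and the list median as a dashed line. The ribosome list has medians of -0.57 at D2PM and -0.78 at D4PM, and the cytokine list spreads in both directions, with Cxcl5 lowest.

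The whole list of ribosome biogenesis is given with these members in it. Its counts and medians include members that were chosen on the same contrasts, so they are not an independent background. Of 106 genes tested, 15 (14.2%) were members, against 1.24% of all genes. The rule bars 28 of the 106 by their symbol, of which only Nol9 and Nol10 met both steps. Between D2PM and old cells 59 of the 106 were lower and 0 higher (limma adjusted p, with 1 higher at an unadjusted p under 0.05). Over all genes 9.11% were lower and 10.3% higher, and the list median was -0.57 against 0.00. Between D4PM and old cells 85 were lower and 0 higher (1 higher at an unadjusted p under 0.05), against 15.5% and 12.4% of all genes. Between D4PM and D2PM the list median was -0.22 against -0.03 over all genes. Of the 106, 98 were below 0, as were 5540 of the 9949 genes tested. In that comparison 0 of the 106 passed the threshold in either direction, with 11 lower and 0 higher at an unadjusted p under 0.05. The median of the first step was -0.41 without old replicate 2 and -0.72 without old replicate 1. The 59 became 8 without old replicate 2, 11 without D2PM replicate 1 and 15 without D2PM replicate 2, and the 85 became 46 without old replicate 2.

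Genes that supply and use tRNA followed. Pus7, a pseudouridine synthase, had 6.80 and 7.54 in old cells, 6.18 and 6.18 at D2PM, and 5.97, 5.72 and 5.57 at D4PM, and 1 of its 3 probe sets met both steps. Kti12, which assists Elongator in modifying the tRNA wobble base, had 9.19 and 9.42 in old cells, 8.29 and 8.18 at D2PM, and 7.77, 8.05 and 7.97 at D4PM. Their stages did not overlap. Pus3 (-1.09), Wdr4 (-1.0) of the tRNA methyltransferase complex, Thumpd1 (-0.82) and Xpot (-1.05), which exports tRNA from the nucleus, had smaller totals. Of 59 genes of tRNA modification and processing, 3 were members. Between D2PM and old cells 10 of the 59 were lower and 3 higher, where 9.11% of all genes were lower and 10.3% higher. The 10 became 0 without old replicate 2 or D2PM replicate 1 and 2 without D2PM replicate 2.

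The charging of tRNA was represented by Iars and Yars2, the isoleucyl-tRNA synthetase of the cytosol and the tyrosyl-tRNA synthetase of mitochondria, with totals of -1.13 and -1.04, and by Eef1e1, a scaffold of the synthetase complex (-0.95). Iars has 2 probe sets, of which 1 met both steps. Of 25 aminoacyl-tRNA synthetase genes, 12 were lower and 0 higher between D4PM and old cells (limma adjusted p, with 0 higher also at an unadjusted p under 0.05). The 12 include the members Iars and Yars2, which were chosen on the same arrays. Over all genes 15.5% were lower and 12.4% higher, and the lower synthetases were fewer without old replicate 2. Among translation factors Eif3b, a core subunit of the initiation factor that recruits the small subunit, had 9.21 and 9.33 in old cells, 8.51 and 8.64 at D2PM, and 8.21, 8.16 and 8.15 at D4PM. Eif4a1, the helicase that unwinds the start of an mRNA, had 12.06 and 12.06 in old cells, 11.48 and 11.60 at D2PM, and 11.34, 11.21 and 11.15 at D4PM. Abce1, which splits ribosomes for reuse, had a total of -1.03. Of 47 translation factors tested, 4 were members. Between D2PM and old cells 8 of the 47 were lower and 2 higher, where 9.11% of all genes were lower and 10.3% higher. The lower ones were fewer without old replicate 2 or either D2PM array. Rpl12, a protein of the large subunit, had a total of -1.23; pseudogene copies of ribosomal protein genes can share probes, so this value is uncertain, and 1 of the 3 probe sets of Eif4a1 met both steps.

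Non-coding RNAs were 8 of the 123. The microRNA gene Mir377, in the imprinted cluster of the host transcript Mirg on chromosome 12, had the largest second step of all members. Its levels were 8.56 and 7.97 in old cells, 7.33 and 7.17 at D2PM, and 6.75, 5.43 and 6.48 at D4PM. The steps were -1.02 and -1.03, and D4PM replicate 2 stood below the other D4PM arrays. The mature products of this locus are shown to identify it, from RefSeq with build GRCm38.p6, plus strand, with the seed (bases 2 to 8) in capitals, at chr12:109740515-109740536 for the 5p and chr12:109740553-109740574 for the 3p arm.
mmu-miR-377-5p: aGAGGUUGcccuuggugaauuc
mmu-miR-377-3p: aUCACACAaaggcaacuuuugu
The arms have different seeds. The array does not measure mature microRNAs apart from their precursors, so the level is that of RNA from the locus.

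The neighbours of Mir377 in Mirg had lower means at each stage as well, with smaller first steps. Of the 7 microRNA genes of Mirg named on the array, 5 passed the filter, and all 7 were below 0 in both steps. The 7 include Mir377 itself, chosen by the rule, and the first steps of Mir409, Mir154 and Mir541 (-0.03) were small. The steps were -0.07 and -0.79 in Mir409, -0.26 and -0.59 in Mir412, -0.04 and -0.42 in Mir154 and -0.55 and -0.16 in Mir496a. These genes lie within the same host transcript and are not independent of each other. Over the 93 microRNA genes tested, the median steps were -0.15 and 0.10, with 69 below 0 in the first step and 31 in the second.

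Small nucleolar RNAs guide the chemical modification of rRNA and are cut from introns of host genes. Snora41, a box H/ACA guide, had 7.19 and 6.81 in old cells, 5.95 and 6.06 at D2PM, and 6.0, 5.32 and 5.23 at D4PM, while the steps of its host Eef1b2 were 0.07 and -0.07. Its first D4PM array lay within the D2PM range. Snord15b had steps of -0.54 and -0.54, and those of its host Rps3 were 0.20 and -0.01. Snord35a, in Rpl13a, had a total of -1.31. Of 51 snoRNA genes tested, these 3 (5.88%) were members, and the median steps of the class were -0.12 and -0.03, so most of the class did not share the pattern.

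Among long non-coding RNAs, A730049H05Rik had 7.82 and 8.14 in old cells, 6.29 and 5.79 at D2PM, and 5.52, 5.22 and 4.78 at D4PM. Its total of -2.81 was the third of all members, and its second step of -0.87 the second. It overlaps Adamts9, a matrix protease gene with steps of -0.72 (adjusted p = 0.026, limma) and -0.23 (adjusted p = 0.726, limma). Airn, the antisense transcript that silences Igf2r on the paternal allele, had a total of -1.30, and Igf2r had steps of -0.15 and -0.05. G530011O06Rik, which overlaps Mid1, had a total of -1.14, and AI506816 one of -1.13 with wide D4PM values of 6.62, 7.30 and 8.0.

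Thiol redox was represented by 3 of 43 antioxidant and thiol genes tested. Srxn1, which encodes sulfiredoxin, the enzyme that reactivates overoxidised peroxiredoxins and a classic target of the stress factor NRF2, had 10.82 and 11.04 in old cells, 9.06 and 8.85 at D2PM, and 8.41, 9.12 and 8.12 at D4PM. D4PM replicate 2 was above both D2PM arrays. Glrx, a glutaredoxin that removes glutathione from proteins, had 7.47 and 7.51 in old cells, 6.64 and 6.31 at D2PM, and 5.27, 5.36 and 6.53 at D4PM, where the third array overlapped D2PM. Txnrd3, a thioredoxin reductase, had a total of -0.97.

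Gclm and Txnrd1, also NRF2 targets, of glutathione synthesis and thioredoxin reduction, had first steps of -1.25 (adjusted p = 0.000887, limma) and -0.92 (adjusted p = 0.00935, limma), and second steps of 0.00 (adjusted p = 0.996, limma) and -0.19 (adjusted p = 0.755, limma). Among other genes that NRF2 can induce, Hmox1, a heme oxygenase, had steps of -0.95 (adjusted p = 0.0453, limma) and 0.52 (adjusted p = 0.656, limma), and the peroxiredoxin Prdx1 had a first step of 0.18 (adjusted p = 0.42, limma). Over the list 7 genes were lower and 7 higher between D2PM and old cells, where 9.11% of all genes were lower and 10.3% higher.

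Promoter sequence was at hand for 95 of the 123 members and 7865 of the genes tested, as windows from 250 bases before to 50 bases after the start of the gene (RefSeq, build GRCm38.p6). Motifs were searched on both strands, and those of AP-1, NF-kB, NRF2 and STAT were added after the values of the members had been seen. The AP-1 site TGAGTCA was present in 8 member windows (8.4%, against 3.5% of all), those of Fgl2, Glrx, Met, Plaur, Srxn1, Usp10, Wdr4 and Xpot. The STAT site TTCNNNGAA was present in 14.7% (6.7% of all) and the antioxidant response element core TGACNNNGC in 21.1% (15% of all), and a copy of the core can overlap an AP-1 site. The NF-kB site was present in 2.1% (1.5% of all). These shares are descriptions, and a match is not evidence of binding.

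3 windows are shown, each for a member described above: Srxn1 (chr2:152105274-152105573, plus strand) with 2 AP-1 sites and then an antioxidant response element core in capitals, Fgl2 (chr5:21372423-21372722, plus strand) with a STAT site and then an AP-1 site in capitals, and Heatr1 (chr13:12395125-12395424, plus strand) with the ETS core CCGGAAG in capitals.
Srxn1: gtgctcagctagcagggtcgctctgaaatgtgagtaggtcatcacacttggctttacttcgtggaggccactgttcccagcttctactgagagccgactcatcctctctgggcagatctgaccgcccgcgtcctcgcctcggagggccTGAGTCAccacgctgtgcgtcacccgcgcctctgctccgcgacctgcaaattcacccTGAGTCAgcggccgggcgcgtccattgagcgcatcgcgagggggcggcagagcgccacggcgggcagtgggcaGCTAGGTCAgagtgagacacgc
Fgl2: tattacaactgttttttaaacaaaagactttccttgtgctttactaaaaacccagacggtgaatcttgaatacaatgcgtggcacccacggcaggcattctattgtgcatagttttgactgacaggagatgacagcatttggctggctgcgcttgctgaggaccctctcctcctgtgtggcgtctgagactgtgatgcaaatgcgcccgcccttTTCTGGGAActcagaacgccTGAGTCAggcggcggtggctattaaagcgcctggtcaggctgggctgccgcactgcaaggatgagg
Heatr1: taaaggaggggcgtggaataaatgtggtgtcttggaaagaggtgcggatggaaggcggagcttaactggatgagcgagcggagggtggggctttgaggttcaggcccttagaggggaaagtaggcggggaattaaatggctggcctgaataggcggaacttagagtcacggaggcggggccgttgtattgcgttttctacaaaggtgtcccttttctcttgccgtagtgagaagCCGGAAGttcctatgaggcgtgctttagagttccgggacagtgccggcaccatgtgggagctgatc
The ETS core occurred in 6 of 17 windows of nucleolar members (35.3%) and in 22.1% of all member windows, against 18.0% of all genes. The E-box CACGTG, which MYC and its partners bind, occurred in 15.8% of member windows against 10.4%, the CCAAT box in 29.5% against 38.0%, and the GC box GGGCGG in 66.3% against 65.2%.

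Genes of mitochondria were 8 members, of which 3 (Chchd4, Timm9 and Tomm70a) stood in the list of import and protein quality and 0 in that of the respiratory chain. Pprc1, a coactivator of the PGC-1 family that links growth to mitochondrial gene expression, had 9.29 and 9.50 in old cells, 7.93 and 8.03 at D2PM, and 7.67, 7.22 and 7.63 at D4PM, without overlap. Chchd4, which imports and oxidises proteins of the intermembrane space, had 7.53 and 8.06 in old cells, 7.08 and 6.97 at D2PM, and 6.47, 6.95 and 6.44 at D4PM. Each stage of both genes lay below the previous one, with totals of -1.89 and -1.18. The other totals were those of Atad3a (-1.26), Ndufaf4, an assembly factor of complex I (-1.18), Coq8b of coenzyme Q synthesis (-1.15), Lrpprc, which stabilises mitochondrial mRNA (-1.06), Timm9 (-1.02) and the import receptor Tomm70a (-0.96).

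Lists of structural mitochondrial genes had medians above 0 in the first step. Of 64 genes of the respiratory chain and ATP synthase tested, 0 were members, and between D2PM and old cells 0 were lower and 30 higher, where 10.3% of all genes were higher (limma adjusted p, with 0 lower and 45 higher at an unadjusted p under 0.05), with a list median of 0.48. Of 70 genes of the mitochondrial ribosome, 0 were members, 0 were lower and 21 higher (0 and 36 at an unadjusted p under 0.05), with a median of 0.36. These calls depended on single arrays: the 30 became 0 without old replicate 2 or D2PM replicate 1 and 13 without D2PM replicate 2, and the 21 became 9 without old replicate 1, 4 without old replicate 2, 2 without D2PM replicate 1 and 12 without D2PM replicate 2. Their second steps had medians of -0.18 and -0.20, close to the -0.22 of ribosome biogenesis, so the lists part in the first step. Of 36 genes of mitochondrial import and protein quality, 3 were members. At D2PM 4 of the 36 were lower and 9 higher than in old cells, where 9.11% of all genes were lower and 10.3% higher. The 4 became 0 without old replicate 2 or either D2PM array and 2 without D4PM replicate 1, and the 9 became 1 to 5 without any 1 old or D2PM array.

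Synthesis of nucleotides was represented by Ctps, which makes CTP (7.93 and 8.53 in old cells, 7.66 and 7.44 at D2PM, and 7.18, 7.02 and 6.92 at D4PM, without overlap), and Ppat, the first enzyme of purine synthesis (total -0.92). Of 49 genes of purine and pyrimidine metabolism tested, these 2 were members. Between D2PM and old cells 4 of the 49 were lower and 6 higher (limma adjusted p), where 9.11% of all genes were lower and 10.3% higher. The list median of the first step was 0.07. Uck2, which salvages uridine and cytidine, had a first step of -1.61 (adjusted p = 6.28e-05, limma) and a second of -0.24 (adjusted p = 0.656, limma). The sialidase Neu2, the retinol dehydrogenase Rdh10, the glucosylceramide synthase Ugcg, the galactosyltransferase B4galt5, the heparan sulphate enzyme Ndst2, the lipid droplet protein Hilpda, Zdhhc13, a palmitoyltransferase, and Dpy19l3, a mannosyltransferase, made up the rest of that group. B4galt5 had 8.58 and 8.88 in old cells, 8.32 and 8.14 at D2PM, and 7.37, 8.11 and 7.51 at D4PM. Its second step held 53.1% of the total, and D4PM replicate 2 was close to the lower D2PM array.

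Transcription and mRNA genes were led by Dot1l, the methyltransferase of histone H3 lysine 79, and Ell2, an elongation factor of RNA polymerase II. Dot1l had 8.97 and 8.91 in old cells, 7.61 and 7.61 at D2PM, and 7.49, 6.96 and 7.44 at D4PM. Ell2 had 9.76 and 9.77 in old cells, 8.78 and 8.24 at D2PM, and 7.89, 7.96 and 8.70 at D4PM, where the third array overlapped D2PM. The splicing and RNA-binding members Sf3b3 (-1.06), Prpf4b (-1.06), Fubp1 (-1.02), Hnrnpf (-0.90) and Sfswap (-0.87), the cap methyltransferase Rnmt (-1.22), the mRNA export factor Thoc1 (-1.01), Wdr77, a partner of the arginine methyltransferase PRMT5 (-1.29), Creb3l1 (-1.08), Ccnl2 (-1.08), Zfp146 (-1.02) and Phf10 (-0.98) followed. Hnrnpf has 4 probe sets, of which 1 met both steps.

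Satellite cell genes were 3 of the members, of 46 identity and quiescence genes tested. Asb5, a subunit of a ubiquitin ligase found in satellite cells, had 12.45 and 12.50 in old cells, 11.90 and 11.70 at D2PM, and 11.63, 11.26 and 11.37 at D4PM. Msc (musculin, a basic helix-loop-helix repressor) had 10.66 and 11.17 in old cells, 10.23 and 10.38 at D2PM, and 10.19, 10.15 and 9.59 at D4PM. Met, the receptor of hepatocyte growth factor, which activates satellite cells, had 8.56 and 8.94 in old cells, 8.27 and 8.21 at D2PM, and 8.09, 7.84 and 7.88 at D4PM. In all 3 every stage lay below the previous one, with totals of -1.06, -0.94 and -0.81.

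Pax7 and Myf5, genes that define the sorted cells, did not share this order. Pax7, the defining transcription factor, had 10.26 and 9.87 in old cells, 10.17 and 10.43 at D2PM, and 10.52, 10.30 and 10.47 at D4PM, and Myf5 had 10.99 and 11.18 in old cells, 11.25 and 11.32 at D2PM, and 11.40, 11.15 and 11.44 at D4PM. Both lay far above the filter value on every array. Some other identity genes were lower at D4PM than in old cells (limma adjusted p). Vcam1 had steps of -0.66 and -0.15, Itga7 of -0.18 and -0.26 and Itgb1 of -0.22 and -0.23. Between D4PM and old cells 10 of the 46 genes were lower, the 3 members among them, and 14 higher. Over all genes 15.5% were lower and 12.4% higher. Myod1, which commits myoblasts and rises on activation, had 10.90 and 10.97 in old cells, 9.75 and 9.91 at D2PM, and 9.60, 9.91 and 9.25 at D4PM, and its second step of -0.24 kept it outside the limit. Myog, the factor of differentiation, had first and second steps of 0.94 (adjusted p = 0.00504, limma) and -1.63 (adjusted p = 0.00254, limma). Over the 46 genes 3 were lower and 9 higher between D2PM and old cells, where 9.11% of all genes were lower and 10.3% higher. The 3 include the members Met and Asb5, which were chosen on this same contrast. The median first step of the 46 was 0.15. The lower ones were 6 with median centring, 5 with a trended and robust prior and 0 without old replicate 2 or either D2PM array, and the 9 became 3 without old replicate 2 or D2PM replicate 1 and 4 without D2PM replicate 2.

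The remaining members act in signalling, adhesion and protein handling. Pcdh18, a protocadherin, had 9.52 and 9.72 in old cells, 9.04 and 8.98 at D2PM, and 8.85, 7.96 and 8.06 at D4PM, so its second step exceeded the first. Ivns1abp (total -1.37) and Rnf122 (-1.23), a ubiquitin ligase, Ptpn23 (-1.25), an endosomal phosphatase, Naa25 (-1.24), of the N-terminal acetyltransferase NatB, Sh3bp2 (-1.17), an adaptor, Arhgap42 (-1.05), Usp10 (-0.99), a deubiquitinase, Pvr (-0.92), the adhesion molecule known as the poliovirus receptor, Ipo4 (-0.84), a nuclear import factor, and the kinase Csnk1g3 (-0.87) had no common process. The other 3 of this group were Sgtb, Limd1 and Kif21a. Ivns1abp and Arhgap42 each have 2 probe sets, of which 1 met both steps.

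Over all members 114 have 1 probe set and 9 have several, and in 1 of the 9 every probe set met both steps. The 8 members not placed were Fam111a, Npn2, Fam98a, Tcp11l2, Srfbp1, Ccdc137, Medag and 2410002F23Rik. Fam111a, a protease gene that restricts viral replication in human cells, had 7.91 and 8.21 in old cells, 6.19 and 5.97 at D2PM, and 6.02, 5.82 and 5.32 at D4PM, with a total of -2.34. Npn2, with 5.93 and 6.45 in old cells, 4.96 and 5.53 at D2PM, and 4.67, 4.52 and 4.47 at D4PM, came close to the filter value. Of the 2 probe sets of 2410002F23Rik, 1 met both steps.

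Members are 1.24% of all genes, so few are to be found in a short list at that share, and nothing is read from a list with none. Of 42 lists of pathways and cell states, 19 held a member and 23 held none, and 53 members stood in a list while 70 stood in none. Lists with no member included the proteasome, the cell cycle, fatty acid oxidation, glycolysis, hypoxia, cytosolic chaperones, immediate early genes and Notch. The 29 proteasome genes tested all had a second step below 0 (median -0.22), the size seen in ribosome biogenesis, but their median first step was 0.18. No member was in any of the 9 lists of markers of other cell types. Myofibre markers (21 named, 20 tested, Myh2 below the filter) had a summed linear level of 3377 to 4100 in old cells, 6953 to 8088 at D2PM and 6874 to 8673 at D4PM, and macrophage and monocyte markers (14 named, 9 tested) one of 636 to 939 in old cells, 604 to 753 at D2PM and 611 to 778 at D4PM, with Csf1r, Fcer1g, C1qb, Mrc1 and Ptprc below the filter. The part of such RNA in the levels of the members was not tested.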

How the data were processed

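Microarray levels of sorted satellite cells were analysed on 7 arrays, grouped by the sample labels (2 old, 2 D2PM, 3 D4PM). The values are log2 levels that the authors made with RMA before deposit, which corrects the background, normalises the arrays to one distribution and summarises each probe set, and per the methods removed probes that were not expressed or did not vary. The table held 18675 probe sets, with array medians between 6.11 and 6.19, no detection calls and no probe set with an SD under 0.0914, so shares refer to genes that vary. Of 14480 probe sets with 1 gene in the array annotation, 14425 matched a RefSeq gene of GRCm38.p6, and the brightest one stood for each of 13287 genes, of which 9949 reached the mean of 5.12 set by the 25th percentile. The number of arrays limits the precision.

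Members followed the stated rule on group means. Limma 3.58.1 in R 4.3.3, the test of the study's methods, was fitted to 3 group means over all genes with Benjamini-Hochberg adjustment, and was tested on simulated data. The members and all lists (42 of pathways and cell states, 9 of cell markers) were chosen with earlier results of these data known. Named were members (largest totals, second steps or levels, up to 4 per list, and those of each function described), genes at the limits or left out by symbol, and Pax7, Myf5, Myod1 and Myog. Other genes, such as Cxcl2, Tnf, Il6st, Lox, Gclm, Hmox1, Prdx1 and Uck2, were picked after their values were seen. Alternatives were median centring, quantile normalisation a second time, other filters, averaged probe sets, other limits, group medians, a trended and robust prior, a replicate block and leaving out each array.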

Additional observations from a re-analysis of the deposited data

How the results depend on the processing

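The list of 123 members depended on the processing. The rule gave 79 members with median centring of the arrays (72 of them shared with the 123), 89 with a second quantile normalisation (83 shared), 325 with limits of -0.4 and -0.2 and 36 with limits of -0.6 and -0.4. Leaving out each array in turn gave between 96 members (without old replicate 2) and 198 (without D4PM replicate 1, 107 shared). Other filters, probe sets averaged per gene, group medians and keeping all symbols gave 109 to 138. Both scalings, averaged probe sets and the 7 arrays left out in turn make 10 settings, and 24 members met the rule in each of them. The cause was not tested. For 29 named members, 389 of 398 values of the total stayed within 1 SD, 9 moved beyond it and 0 changed sign. Part of this was fixed in advance. Other filters and leaving out a D2PM array cannot move a difference between D4PM and old cells. Averaging cannot move it in members with 1 probe set.

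The counts of genes called by limma in both directions were 1931 for D2PM against old (324 to 2057 leaving out each array), 19 for D4PM against D2PM (0 to 18) and 2771 for D4PM against old (913 to 2519). Without D2PM replicate 1 or D2PM replicate 2 the count between the days was 0, with 356 and 778 genes at an unadjusted p under 0.05, and it was 2 without either old array, D4PM replicate 1 or D4PM replicate 2. The lone array of a group was then assumed to vary like the other groups. With the replicate number as a block, the counts were 2045, 54 and 2486, and the rule gave 100 members (77 shared). Replicate 3 exists only at D4PM, so the block takes that array out of the group differences. Leaving out D4PM replicate 3 also gave 100 members (77 shared), so these are not separate checks. The deviations of same-numbered arrays from their group means correlated by -0.08 to 0.05. In a group of 2 arrays these deviations are exact opposites, so the correlations are not independent of each other. They cannot decide whether the numbers pair the arrays. Of 286 list medians 18 moved, and the median first step of cytokines and chemokines (-0.07) was 0.09 without old replicate 1. Of 308 counts of lower genes in lists 50 moved by over 1.5 times. Of 154 counts of genes higher at D2PM in lists 33 moved so. Without old replicate 2 or D2PM replicate 1 the lower genes at D2PM became 0 for aminoacyl-tRNA synthetases (4), tRNA modification (10), translation factors (8), mitochondrial import (4) and satellite cell identity (3), and without D2PM replicate 2 they became 0, 2, 1, 0 and 0. At D4PM those of synthetases (12) became 3 without old replicate 2.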

Other observations

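Some arrays held the same deposited value of a gene to within 0.001. This was so for both D2PM arrays in 13 members (10.6%) and in 615 of the 9949 genes tested (6.2%), and an SD of 0 then enters the D2PM group of those genes. Among old arrays it was so for 0 members and 316 genes (3.2%), and among at least a pair of D4PM arrays for 0 members and 1129 genes (11.3%).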
